A study of Mus musculus with 2 samples.

Results

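10 CC chemokine ligands, secreted proteins that attract white blood cells, were measured in single cells of mouse kidney tumours: Ccl2, Ccl3, Ccl4, Ccl5, Ccl6, Ccl7, Ccl8, Ccl9, Ccl12 and Ccl22. They were taken by symbol, and all 10 were found once each among the 55357 genes of the deposited matrix. The tumours were RENCA, a kidney carcinoma line of BALB/c origin, grown in the kidney of BALB/c mice. By the series text cells were sorted for CD45, a protein on the surface of leukocytes, but the cell type in both sample records is epithelial. Each group is 1 library, with the genotype label SMYD3 knockdown or WT, and the sources used here do not give how many animals went into each. SMYD3 is a lysine methyltransferase, lowered in the grafted cancer cells and not in the host's own cells by that design. Animal age, the knockdown construct and the number of clones are likewise not given. Tumours were cut up and digested with collagenase and papain before droplet capture. In each pair of values below, the library labelled SMYD3 knockdown comes first and the library labelled WT second. With 1 library per label there was no replicate, so no test over samples exists. Intervals are 95% intervals, exact Poisson for levels and exact conditional binomial for ratios. They cover counting error only, and not the spread between cells.

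CC chemokines are small secreted proteins that bind G-protein-coupled receptors on white blood cells and set up gradients, held on cell-surface glycans, along which these cells move. Ccl2, Ccl7 and Ccl12 act through the receptor CCR2 and recruit monocytes. Ccl3, Ccl4 and Ccl5 attract T cells, NK cells and monocytes, and Ccl3 and Ccl5 act through CCR1, the receptor of the rodent chemokines Ccl6 and Ccl9. Mouse Ccl8 acts through CCR8, and Ccl22 through CCR4, which regulatory T cells carry. In tumours, macrophages are a known source of many of them.

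After filtering, 8784 and 8079 cells were left, with 8666 and 9435 UMIs (unique molecules) per cell at the median. Cells were gated on marker lists into 5887 and 5919 monocyte-macrophage cells, 1573 and 885 neutrophils, 155 and 199 dendritic cells, 81 and 103 T cells, 18 and 32 NK cells and 54 and 97 keratin-positive cells. The last carry epithelial markers and are taken as the tumour-like cells, and 910 and 798 cells stayed ungated. Smyd3 was not lower in the keratin-positive cells of the library labelled SMYD3 knockdown: it had 29 and 40 UMIs, 20.3 and 17.0 UMIs scaled to equal totals (CPM, the unit of all levels below), a ratio of 1.19 with an interval of 0.712 to 1.97. Libraries are therefore called by their labels throughout. Pancreatic acinar transcripts were present in the library labelled SMYD3 knockdown, where 89 cells were gated as acinar, against 0 in the library labelled WT. The libraries shared 22 barcode sequences.

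All members but Ccl22 lie on mouse chromosome 11 (mm10, positions from GENCODE vM21), in separate groups of neighbours. Ccl2, Ccl7, Ccl12 and Ccl8 lie in this order on the plus strand within chr11:82035571-82116799, a span of 81.2 kb. Ccl5, Ccl9, Ccl6, Ccl3 and Ccl4 lie within chr11:83525778-83664683, a span of 139 kb. Ccl22 stands apart at chr8:94745590-94751699. The principal transcripts have 3 exons, or 4 for Ccl6 and Ccl9. Over the gene of Ccl6 runs E230016K23Rik on the other strand, with 1271 UMIs against 749188 for Ccl6. The overlap of Ccl2 with Gm17268 carried 0 UMIs. How the counting treated reads that match more than 1 of these related genes was not tested.

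RefSeq promoters (GRCm38.p6, the assembly of mm10) were found for 6 of the 10 members. Those of Ccl2, Ccl4, Ccl5 and Ccl7 were not matched. Shown 5′ to 3′ on the gene's strand are the 250 bases before the start of 2 pairs of neighbours. Ccl12 (chr11:82101595-82101844) and Ccl8 (chr11:82114935-82115184) differed between the libraries in opposite directions in macrophages, while Ccl9 (chr11:83578637-83578886, minus strand) and Ccl6 (chr11:83593088-83593337, minus strand) were both lower in the library labelled SMYD3 knockdown. Capitals mark matches to the motifs searched.
Ccl12: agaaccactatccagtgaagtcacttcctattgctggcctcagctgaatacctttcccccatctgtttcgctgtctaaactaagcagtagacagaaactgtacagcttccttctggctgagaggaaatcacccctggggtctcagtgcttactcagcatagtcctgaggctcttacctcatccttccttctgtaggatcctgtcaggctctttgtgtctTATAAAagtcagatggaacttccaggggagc
Ccl8: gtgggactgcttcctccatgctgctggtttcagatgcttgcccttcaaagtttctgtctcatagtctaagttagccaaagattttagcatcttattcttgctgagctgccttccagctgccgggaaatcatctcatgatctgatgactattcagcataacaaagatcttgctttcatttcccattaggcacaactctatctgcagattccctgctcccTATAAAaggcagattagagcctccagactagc
Ccl9: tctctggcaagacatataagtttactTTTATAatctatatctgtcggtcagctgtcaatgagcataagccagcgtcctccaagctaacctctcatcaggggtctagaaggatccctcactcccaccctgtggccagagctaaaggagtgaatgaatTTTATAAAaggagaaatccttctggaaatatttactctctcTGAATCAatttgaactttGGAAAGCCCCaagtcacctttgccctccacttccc
Ccl6: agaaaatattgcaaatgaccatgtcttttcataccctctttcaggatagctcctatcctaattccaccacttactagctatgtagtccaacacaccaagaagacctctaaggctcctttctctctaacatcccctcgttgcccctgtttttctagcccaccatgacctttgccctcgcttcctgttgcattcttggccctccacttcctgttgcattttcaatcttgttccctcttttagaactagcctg
Ccl12 and Ccl8 share a TATA box letter run (TATAAA) at 31 and 32 bases before the start, and 145 of their 234 aligned bases (62.0%) were identical. That was the highest identity among the 15 pairs of the 6 promoters, which ranged down to 47.7%. Ccl9 carries a kappaB letter run on the minus strand 35 bases before its start, an AP-1 run (TGANTCA) at 53 and TATAAA on 1 or the other strand at 92 and 94 (overlapping) and 224, and Ccl6 carries none. Searched on both strands were kappaB (GGG, any 2 bases, TT, any base, CC), AP-1 (TGANTCA), C/EBP (TTGCNNAA), an interferon response element (GAAA, any 2 bases, GAAA) and TATAAA. They matched 4.11%, 6.75%, 9.56%, 2.98% and 12.4% of 32851 promoter windows of this length. A match is a description of letters and not a site shown to be bound.

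Most UMIs of 8 members lay in monocyte-macrophage cells, and those of Ccl5 and Ccl22 did not. Of the UMIs of Ccl12 in all kept cells, 98.5% and 98.6% lay in monocyte-macrophage cells, and the shares for Ccl7 (98.5% and 98.4%), Ccl8 (97.5% and 97.2%), Ccl2 (97.3% and 95.7%) and Ccl9 (95.2% and 94.5%) were much alike. Ccl3 was the member with the largest neutrophil share, 15.6% and 10.5%, beside 73.1% and 79.4% in monocyte-macrophage cells. Ccl22 was mostly dendritic, with 83.0% and 80.3% of its UMIs in dendritic cells, which were 155 and 199 cells. Ccl5 was divided among dendritic cells (42.1% and 38.6%), T cells (31.5% and 26.0%), NK cells (7.96% and 13.6%) and monocyte-macrophage cells (13.8% and 15.8%). A share of UMIs moves with the number of cells of each type as well as with the level in each cell. Monocyte-macrophage cells held most UMIs of all genes together, 73008437 of 83540266 and 70354614 of 81474413. Ccl3 was lower in them than over all kept cells, at 754 and 726 against 901 and 790 CPM. Ccl4 (1769 and 1829 against 1730 and 1744 CPM) and Ccl6 (4409 and 5144 against 4276 and 4811 CPM) were only slightly higher.

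**Figure D1:**
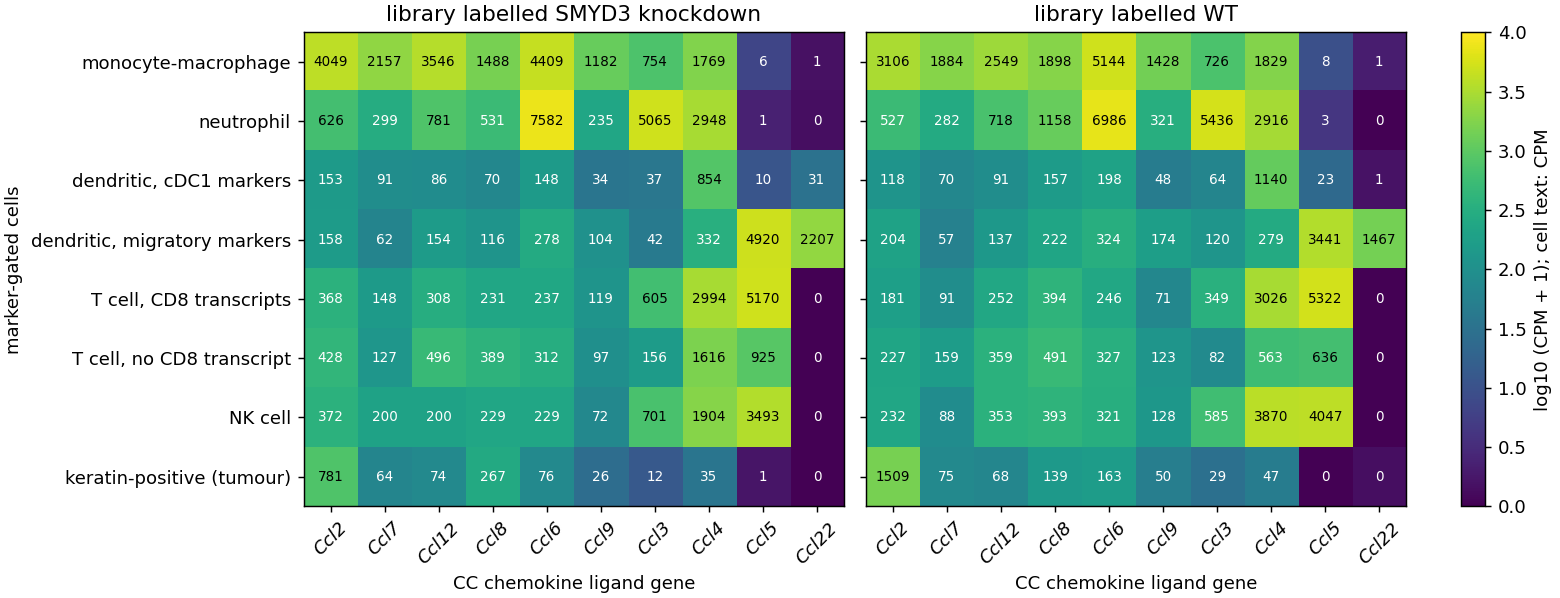
Level of each CC chemokine ligand (columns, CPM printed in each field and coloured as log10 of CPM + 1) in each gated cell type (rows), with the library labelled SMYD3 knockdown on the left and the library labelled WT on the right. Ccl22 stands out in dendritic cells with migratory markers, at 2207 and 1467 CPM, and is at or below 1.08 CPM in monocyte-macrophage cells. Ccl5 is at 4920.5 and 3441 CPM in those dendritic cells and 5170.5 and 5322 CPM in T cells with CD8 transcripts.

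In monocyte-macrophage cells the monocyte attractants Ccl2, Ccl7 and Ccl12 had higher levels under the label SMYD3 knockdown, and Ccl6, Ccl8 and Ccl9 were lower. Ccl12 was at 3546 and 2549 CPM, a ratio of 1.39 (95% counting interval 1.38 to 1.40). Ccl2, the principal monocyte attractant, was at 4049 and 3106 CPM, a ratio of 1.30 (95% counting interval 1.30 to 1.31). Ccl7 was at 2157 and 1884 CPM, a ratio of 1.15 (95% counting interval 1.14 to 1.15). These 3 ligands of CCR2 thus had ratios from 1.15 to 1.39, and each stayed above 1 in every alternative computed. Their median cell was higher too, at 2434 and 1887 CPM for Ccl2, 948 and 707 for Ccl12 and 1028 and 859 for Ccl7.

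Ccl8, the ligand of CCR8, went the other way, at 1488 and 1898 CPM, a ratio of 0.784 (95% counting interval 0.778 to 0.790). It was detected in 71.1 and 89.0% of these cells, or 29.1 and 41.9% with every cell thinned to 1000 UMIs, with 188 and 190 shallower cells left out. T cells, which are not a known source of Ccl8, had a UMI of it in 58.0 and 72.8% of cells, or 22.5 and 32.7% thinned, at median depths of 3032 and 2895 UMIs against 11676 and 11192. By level the types stood further apart, with 291 and 451 CPM in T cells. The Ccl8 ratio depended on how macrophage states were weighed: it was 0.688 with each cell given the same weight and 1.01 with each of the 9 states given the same weight and cells outside them left out.

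The CCR1 ligands Ccl6 and Ccl9, which neighbour each other, were both lower in the library labelled SMYD3 knockdown. Ccl6 was at 4409 and 5144 CPM, a ratio of 0.857 (95% counting interval 0.853 to 0.861), and Ccl9 at 1182 and 1428 CPM, a ratio of 0.828 (95% counting interval 0.820 to 0.836). Ccl6 was found in 98.5 and 99.2% of cells and Ccl9 in 93.2 and 95.5%, against 58.0 and 62.1% of the shallower T cells for Ccl6. With every cell thinned, Ccl9 was found in 60.2 and 66.4% of monocyte-macrophage cells and 6.25 and 12.9% of T cells. Ccl3 and Ccl4 differed least. Ccl3 was at 754 and 726 CPM, a ratio of 1.04 (95% counting interval 1.03 to 1.05), and Ccl4 at 1769 and 1829 CPM, a ratio of 0.967 (95% counting interval 0.960 to 0.975). Ccl5 was at 5.81 and 8.32 CPM (424 and 585 UMIs), and Ccl22 at 0.534 and 1.08 CPM (39 and 76 UMIs). Both were under the minimum set for counting a fold.

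With a minimum of 20 UMIs and 10 CPM in either library, 8 of the 10 members were counted in monocyte-macrophage cells. None of them differed by 1.5-fold or more, where 0.303% of the 7916 genes counted were that much higher in the library labelled SMYD3 knockdown and 0.657% that much lower. With a smaller threshold chosen after seeing the data, 2 members (Ccl2 and Ccl12) were at least 25% higher, as 1.52% of genes were, and 1 (Ccl8) was at or below 0.8 of the WT-label level, as 3.83% were. The median log2 difference was 0.0031 over the 8 members and -0.014 over all genes counted, with members on either side. Genes that respond to tissue handling were lower at the median under the label SMYD3 knockdown in these cells: the median log2 difference of the 10 in that list was -0.22, with Hspa1b, a heat shock protein, at 372 and 544 CPM and Fos, an early response factor, at 2125 and 2769.7 CPM. None of the 10 passed 1.5-fold. Their part in the chemokine differences was not tested.

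**Figure D2:**
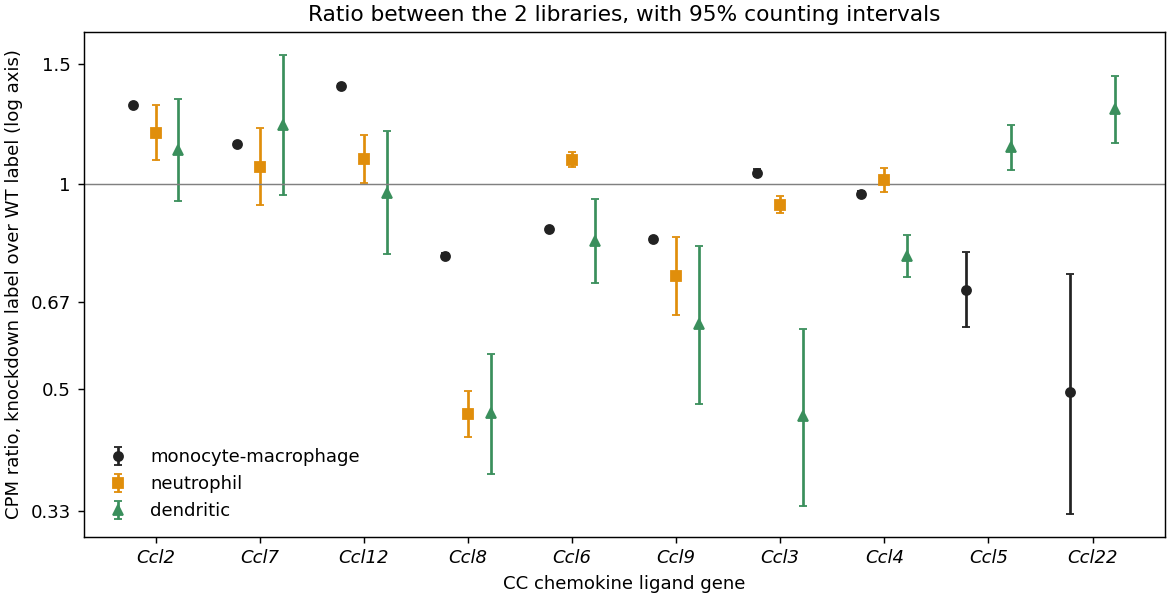
CPM ratio of the library labelled SMYD3 knockdown over the library labelled WT (log axis) for each member with at least 20 UMIs in both libraries, in monocyte-macrophage cells (circles), neutrophils (squares) and dendritic cells (triangles), with 95% counting intervals. Ccl8 lies below 1 in all 3 types, at 0.784, 0.459 and 0.460, while Ccl6 lies below 1 in monocyte-macrophage cells and above it in neutrophils. In dendritic cells Ccl8 was at 80.0 and 174 CPM, below the 291 and 451 CPM of T cells. No expression of Ccl8 by dendritic cells or neutrophils is stated.

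Monocyte-macrophage cells were divided further into 9 states by marker lists, with 2245 and 2191 cells left in none. The states hold 200 to 880 cells per library and are named here by their markers. A state is a range of a score and not a cell type, and between 11 and 107 cells of each state and library lay close to a threshold.

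Each member had its own distribution over these states. Ccl8 was highest in cells with Lyve1 and Cd163, markers of tissue-resident macrophages, at 5695 and 5877 CPM, and lowest in the library labelled SMYD3 knockdown in cells with Nos2 and Inhba, at 98.3 and 210.3 CPM. In 4 states (Arg1 and Spp1, Nos2 and Inhba, MHC class II, Ly6c2 and Plac8) Ccl8 lay between 98.3 and 242 CPM over both libraries, below the level of 291 and 451 CPM in T cells of the same libraries. T cells were shallower, at median depths of 3032 and 2895 UMIs, and by UMIs per cell these states were not below them. Nos2 and Inhba cells held 241 and 595 Ccl8 UMIs in 244 and 266 cells. T cells held 79 and 169 in 81 and 103 cells. No statement on Ccl8 expression is made for those 4 states.

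Ccl12 followed a similar order, with 6128 and 4416 CPM in the Lyve1 and Cd163 state and 5598 and 4520.4 CPM in the Cx3cr1 and Vcam1 state, down to 264 and 259 CPM in the Nos2 and Inhba state. In CPM, the latter and Ly6c2 and Plac8 cells (315 and 302 CPM) were not above the shallower T cells (379.6 and 315 CPM). By UMIs per cell both states were above T cells. Nos2 and Inhba cells held 647 and 733 Ccl12 UMIs in 244 and 266 cells. Ly6c2 and Plac8 cells held 1306 and 897 in 455 and 334 cells, and T cells 103 and 118 in 81 and 103 cells. No statement on Ccl12 expression is made for those 2 states. Ccl7 was highest in the Lyve1 and Cd163 state, at 3112 and 2865 CPM, and lowest in Ly6c2 and Plac8 cells, the monocyte-like state, at 517 and 593 CPM. Ccl2 was spread more evenly and was highest in Arg1 and Spp1 cells, at 5273 and 4383 CPM. It was lowest in MHC class II cells, at 2145 and 1664 CPM. The 4 neighbours on chromosome 11 therefore did not share 1 order of states.

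Ccl6 was highest in Arg1 and Spp1 cells, at 8227 and 6839.6 CPM, and lowest in Cx3cr1 and Vcam1 cells, at 1869 and 2377 CPM. Ccl9 was lowest there too, at 685 and 907 CPM, and highest in Lyve1 and Cd163 cells, at 1541 and 1669.8 CPM. Ccl3 was highest in Nos2 and Inhba cells, at 1109.7 and 1068 CPM. Ccl4 was high in interferon-response cells, at 3463 and 2730.5 CPM, and in Cx3cr1 and Vcam1 cells, at 2441 and 2999 CPM. Ccl5 reached 39.6 and 93.5 CPM (99 and 230 UMIs) in interferon-response cells, its highest state in both libraries. Ccl22 was highest in MHC class II cells, at 3.16 and 4.78 CPM (22 and 41 UMIs). That state also held the most dendritic marker transcripts of the 9, 71.9 and 118 CPM, and their part in the Ccl22 level was not tested.

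**Figure D3:**
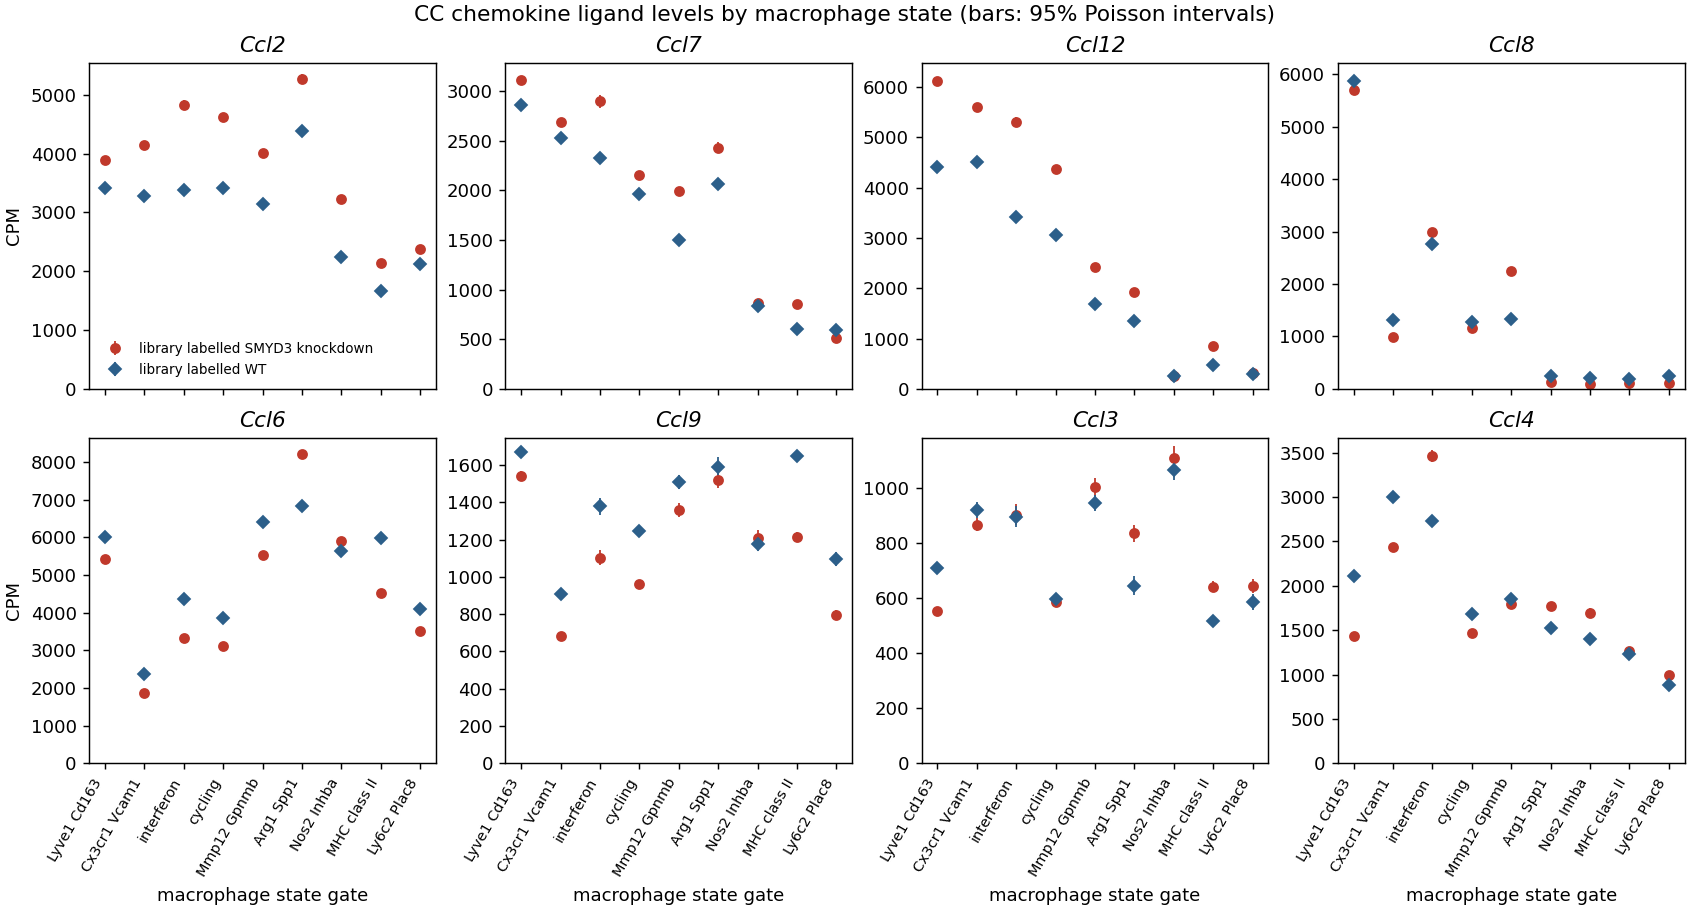
CPM of 8 members in each of the 9 macrophage states, with circles for the library labelled SMYD3 knockdown, diamonds for the library labelled WT, and 95% Poisson intervals. Ccl2 lies higher in the library labelled SMYD3 knockdown in all 9 states, with its lowest levels in MHC class II cells (2145 and 1664 CPM) and its highest in Arg1 and Spp1 cells (5273 and 4383 CPM).

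Within states, the directions held most evenly for Ccl2 and Ccl12. Ccl2 was higher in the library labelled SMYD3 knockdown in 9 of 9 states, with ratios from 1.12 in Ly6c2 and Plac8 cells to 1.44 in Nos2 and Inhba cells. Ccl12 was higher in 9 of 9, from 1.02 (interval 0.915 to 1.13) in Nos2 and Inhba cells to 1.78 (interval 1.71 to 1.85) in MHC class II cells. Its interval included 1 in 2 of them, Nos2 and Inhba cells and Ly6c2 and Plac8 cells, the same 2 that were not above the T-cell level in CPM. In Nos2 and Inhba cells its ratio was 0.968 with each cell given the same weight, and in Ly6c2 and Plac8 cells 0.885 with doublets kept. Of the 6410 genes counted in every state, 5.05% were higher in 9 of 9 states, a way of counting chosen after seeing the data. Ccl7 was higher in 8 of 9, the exception being Ly6c2 and Plac8 cells at 0.871 (interval 0.818 to 0.929), and 12.2% of genes were higher in at least 8. The MHC class II gate held more macrophage transcripts in the library labelled SMYD3 knockdown: C1qa, C1qb, C1qc and Apoe summed to 7026 and 4487 CPM there. The part of that difference in the Ccl12 and Ccl7 ratios was not tested.

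Ccl9 was lower in the library labelled SMYD3 knockdown in 8 of 9 states, where 18.2% of genes were lower in at least 8 (and 0 members but 8.49% of genes in 9 of 9), with ratios from 0.724 in Ly6c2 and Plac8 cells to 1.02 (interval 0.975 to 1.08) in Nos2 and Inhba cells. Ccl6 was lower in 7 of 9 and higher in Arg1 and Spp1 cells, at 1.20 (interval 1.18 to 1.23), and in Nos2 and Inhba cells, at 1.05 (interval 1.02 to 1.07). Ccl3 and Ccl4 had no common direction. In Lyve1 and Cd163 cells both were lower, Ccl3 at 0.780 (interval 0.752 to 0.810) and Ccl4 at 0.679 (interval 0.664 to 0.695), whereas in Arg1 and Spp1 cells both were higher, at 1.29 and 1.16.

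The ratio of Ccl8 was not alike in the 5 states where it was above its T-cell level in CPM. In Mmp12 and Gpnmb cells it was higher in the library labelled SMYD3 knockdown, at 2254 and 1335 CPM, a ratio of 1.69 (interval 1.63 to 1.75), which became 1.07 with every cell thinned to 1000 UMIs. In interferon-response cells the ratio was 1.08 (interval 1.05 to 1.12), and 1.000 with each cell given the same weight, and in Lyve1 and Cd163 cells, its highest state, 0.969 (interval 0.957 to 0.981). Cells outside the 9 states had Ccl8 at 1008 and 1725 CPM, a ratio of 0.584 (interval 0.575 to 0.593). The number of Lyve1 and Cd163 cells also differed, at 685 and 880.

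**Figure D4:**
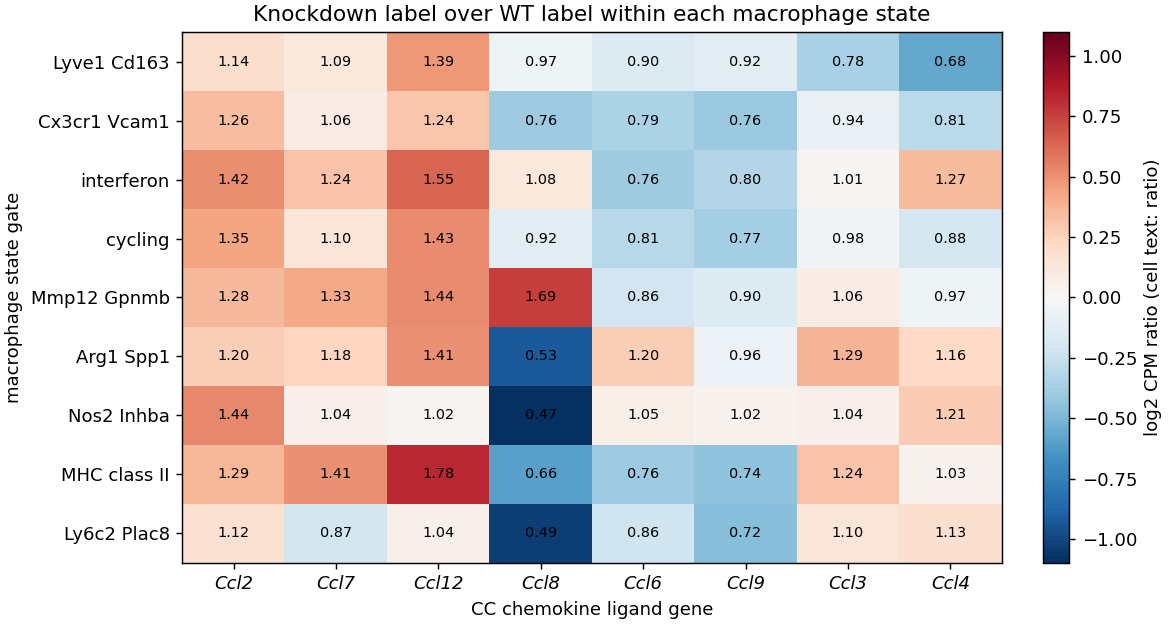
Ratio of the library labelled SMYD3 knockdown over the library labelled WT for 8 members (columns) in each macrophage state (rows), printed in each field and coloured by log2. The Ccl2 and Ccl12 columns are above 1 in all 9 states, though in CPM Ccl12 was not above its T-cell level in Nos2 and Inhba or Ly6c2 and Plac8 cells. In the 5 states where Ccl8 was above its T-cell level in CPM its ratio runs from 0.761 in Cx3cr1 and Vcam1 cells to 1.69 in Mmp12 and Gpnmb cells.

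Single macrophages differed widely from each other. The 10% of cells with the most Ccl8 held 83.1 and 71.3% of its UMIs, and the highest cell carried 1093 and 1128 UMIs while the median cell carried 1 and 3. For Ccl9 the highest 10% held 33.2 and 31.4%. Ccl5 was more uneven still, as 1% of the cells held 96.7 and 89.7% of its UMIs. These shares are not corrected for the depth of each cell, and per 10000 UMIs the 10% with the most Ccl8 held 76.2 and 65.2%.

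Some members went together in single macrophages, with like values in both libraries. Correlations of log-scaled counts over 5887 and 5919 cells, which share library, depth and state, are given as a description. Ccl7 went with Ccl2 (Pearson's r 0.66 and 0.66) and with Ccl12 (0.67 and 0.65), and Ccl2 with Ccl12 (0.51 and 0.52). Ccl6 went with its neighbour Ccl9 (0.57 and 0.54), and Ccl3 with its neighbour Ccl4 (0.47 and 0.46). Ccl8 went with Ccl12 (0.38 and 0.37) but hardly with Ccl2 (0.07 and 0.08). Ccl4 also went with members of the other group of neighbours, Ccl7 (0.32 and 0.34), Ccl2 (0.31 and 0.31) and Ccl12 (0.29 and 0.30).

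In CPM, neutrophils had higher levels of Ccl6, Ccl3 and Ccl4 than monocyte-macrophage cells as a whole in both libraries. Ccl6 was at 7582 and 6986 CPM, a ratio of 1.09 (95% counting interval 1.06 to 1.11), and was found in 94.2 and 93.3% of neutrophils. Ccl3 was at 5065 and 5436 CPM, a ratio of 0.932 (95% counting interval 0.904 to 0.960), and Ccl4 at 2948 and 2916 CPM, a ratio of 1.01 (95% counting interval 0.971 to 1.05). Ccl3 was therefore several times its macrophage level of 754 and 726 CPM, while these neutrophils held 1418 and 1356 UMIs at the median. Under the label SMYD3 knockdown, Arg1 and Spp1 cells exceeded neutrophils for Ccl6 (8227 CPM) and interferon-response cells for Ccl4 (3463 CPM). Under the label WT, Cx3cr1 and Vcam1 cells did for Ccl4 (2999 CPM). In the other library each was below neutrophils. Neutrophils held fewer UMIs per cell of Ccl6, at 11.2 and 9.81 against 54.7 and 61.1 in monocyte-macrophage cells. Ccl3 had 7.48 and 7.63 against 9.35 and 8.63 per cell, and Ccl4 4.35 and 4.09 against 21.9 and 21.7. Ccl4 was unevenly spread, with 77.4 and 79.9% of its UMIs in 10% of neutrophils, and Ccl3 and Ccl4 went together over neutrophils with r 0.33 and 0.28.

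The macrophage-type members were also counted in neutrophils. Ccl8 was at 531 and 1158 CPM, a ratio of 0.459 (95% counting interval 0.425 to 0.495). It was the 1 member of 8 counted that was at least 1.5-fold lower, where 5.56% of 5557 genes were, and 0 members were at least 1.5-fold higher, where 2.97% were. With the smaller threshold 2 were lower (Ccl8 and Ccl9), against 19.1% of genes, and 0 were at least 25% higher, against 10.8%. Ccl9 was at 235 and 321 CPM, Ccl2 at 626 and 527 CPM, Ccl12 at 781 and 718 CPM and Ccl7 at 299 and 282 CPM. The variance over the mean of UMIs per neutrophil was 1.18 and 1.23 for Ccl8, 1.30 and 1.11 for Ccl2, 1.29 and 1.21 for Ccl12, 1.01 and 0.986 for Ccl7 and 1.55 and 1.41 for Ccl9, where counts spread at random over cells give 1. For Ccl3 it was 22.5 and 17.4, for Ccl4 33.1 and 37.9 and for Ccl6 14.8 and 14.3. Variance over mean tends to rise with the mean, which was 0.346 and 0.451 UMIs per neutrophil for Ccl9 and 11.2 and 9.81 for Ccl6. These values therefore do not rank the members by how evenly they are spread.

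Transcripts of the macrophage genes C1qa, C1qb, C1qc and Apoe were present in neutrophils as well, at 2463 and 3379 CPM in sum. Per 1000 UMIs of these 4 genes, neutrophils held 254 and 156 UMIs of Ccl2, against 216 and 159 in monocyte-macrophage cells. For Ccl7 the values were 122 and 83.6 against 115 and 96.2, and for Ccl8 216 and 343 against 79.4 and 96.9. For Ccl3 they were 2056 and 1609 against 40.2 and 37.0, a far wider gap. Ccl12 was at 317 and 212 against 189 and 130.1 on this scale, and Ccl9 at 95.28 and 95.05 against 63.1 and 72.9. Ccl6 and Ccl4 stood apart as Ccl3 did, at 3078 and 2068 against 235 and 263 and at 1197 and 863 against 94.4 and 93.3. Genes of the handling list differed in neutrophils as well, with a median log2 difference of 0.33. Of that list 2 of 10 were at least 1.5-fold higher (Hspa1a and Hspa1b), against 2.97% of all genes counted. Pancreatic transcripts made up 0.238% of neutrophil UMIs under the label SMYD3 knockdown. The part of these in the ratios was not tested. The part of macrophage RNA in the neutrophil values of Ccl2, Ccl7, Ccl8, Ccl9 and Ccl12 was not tested, and no expression of those 5 by neutrophils is stated.

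**Figure D5:**
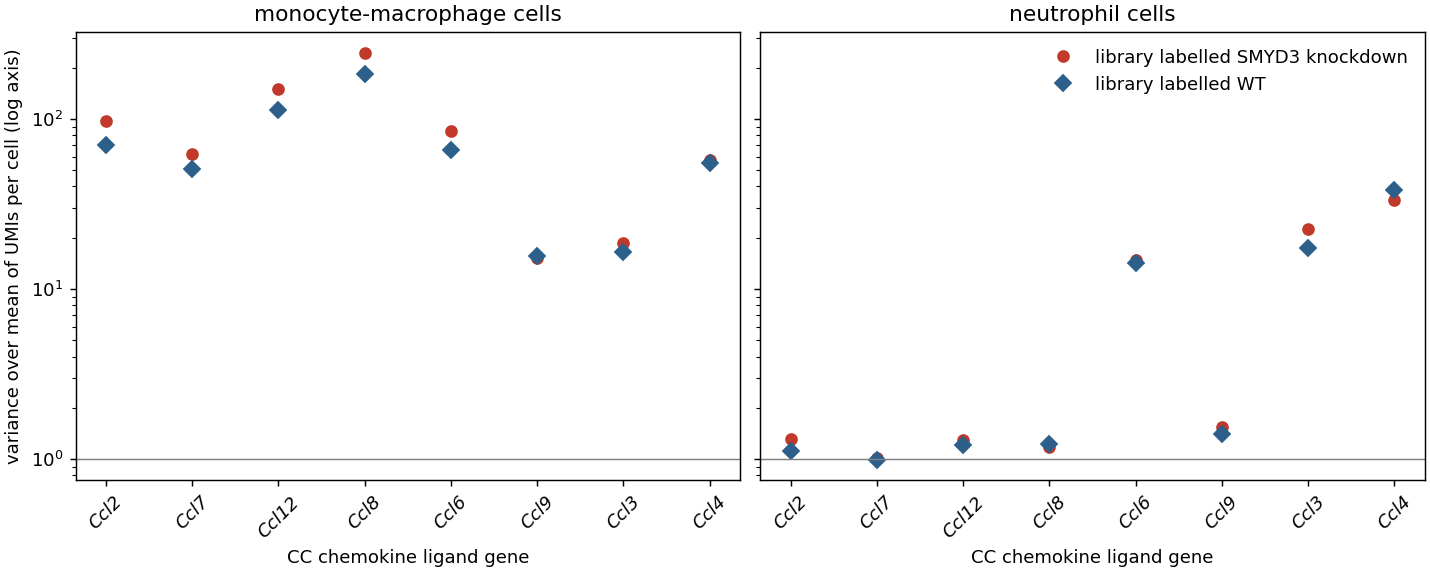
Variance over mean of UMIs per cell (log axis, with a line at 1) for 8 members in monocyte-macrophage cells (left) and neutrophils (right), with circles for the library labelled SMYD3 knockdown and diamonds for the library labelled WT. In neutrophils Ccl9 lies at 1.55 and 1.41, Ccl2, Ccl7, Ccl8 and Ccl12 lie between 0.986 and 1.30, and Ccl3, Ccl4 and Ccl6 at 14.3 or above. The members differ in mean UMIs per cell, and variance over mean tends to rise with that mean.

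Dendritic cells were the main site of Ccl22 and, with lymphocytes, of Ccl5. Ccl22 was at 367 and 285 CPM in all dendritic cells, a ratio of 1.29 (95% counting interval 1.15 to 1.44), and Ccl5 at 765 and 675 CPM, a ratio of 1.13 (95% counting interval 1.05 to 1.22). Both sat in cells with the migratory markers Ccr7 and Fscn1 (36 and 54 cells). There Ccl22 was at 2207 and 1467 CPM, a ratio of 1.51 (interval 1.34 to 1.69), and Ccl5 at 4920.5 and 3441 CPM, a ratio of 1.43 (interval 1.32 to 1.54). A few cells weighed much in these sums: 1% of all dendritic cells held 30.7 and 13.7% of their Ccl5 UMIs, and with each dendritic cell given the same weight the Ccl5 ratio was 0.915, on the other side of 1. The Ccl22 ratio was 1.30 with equal weights and 1.01 with doublets kept. The migratory cells had a UMI of Ccl22 in 86.1 and 75.9% of cases, against 0.391 and 0.794% of monocyte-macrophage cells.

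Dendritic cells with the cDC1 markers Xcr1 and Clec9a (113 and 141 cells) carried Ccl4 at 854 and 1139.5 CPM, a ratio of 0.749 (interval 0.696 to 0.806). Their Ccl5 was at 10.2 and 22.6 CPM, and Ccl22 had 42 and 1 UMIs, found in 4.42 and 0.709% of cells. Over all dendritic cells, 3 of the 10 members counted were at least 1.5-fold lower in the library labelled SMYD3 knockdown, against 3.54% of 7770 genes, and 0 were at least 1.5-fold higher, against 2.36%. With the smaller threshold 4 were lower, against 14.9%, and 1 (Ccl22) was at least 25% higher, against 9.92%. The 3 passing 1.5-fold were Ccl3 (37.3 and 81.8 CPM, a ratio of 0.456 that became 0.162 with equal weights), Ccl8 (80.0 and 174 CPM) and Ccl9 (50.9 and 81.8 CPM). The macrophage genes C1qa, C1qb, C1qc and Apoe were lower there too, at 419 and 653 CPM in sum, and their part in these 3 differences was not tested. In T cells Ccl3 was at 435 and 192 CPM, Ccl8 at 291 and 451 CPM and Ccl9 at 111 and 101 CPM, all above the dendritic levels in CPM. For Ccl3 the T-cell level is not a background, as 10% of T cells held 81.4 and 80.6% of its UMIs there. By UMIs per cell Ccl9 was higher in dendritic cells, at 0.555 and 0.869 against 0.370 and 0.369. Ccl3 and Ccl8 were higher there by that measure only under the label WT. No statement on expression of Ccl3, Ccl8 or Ccl9 by dendritic cells is made.

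T cells with CD8 transcripts (45 and 37 cells) carried Ccl5 and Ccl4, and both ratios had intervals that included 1. Ccl5 was at 5170.5 and 5322 CPM, a ratio of 0.971 (interval 0.882 to 1.07), and Ccl4 at 2994 and 3026 CPM, a ratio of 0.989 (interval 0.871 to 1.12). Over all T cells Ccl5 was at 3563 and 2569 CPM and Ccl4 at 2473 and 1579.5 CPM, and the number of cells without a CD8 transcript was 36 and 66. In those cells Ccl4 was at 1616 and 563 CPM, a ratio of 2.87 (interval 2.26 to 3.65), on 166 and 124 UMIs. NK cells (18 and 32 cells) had Ccl5 at 3493 and 4047 CPM and Ccl4 at 1904 and 3870.2 CPM. With so few lymphocytes a handful of cells can set these values.

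Keratin-positive cells (54 and 97 cells) are the cells closest to the grafted line. Their level of Ptprc, the gene of CD45, was 5.60 and 9.37 CPM, against 332 and 363 in monocyte-macrophage cells. Ccl2 was at 781 and 1509 CPM, a ratio of 0.517 (95% counting interval 0.483 to 0.554), opposite in direction to macrophages. A single cell of the library labelled WT held 1501 of its 3543 Ccl2 UMIs (42.4%), and the median cell held 5 and 3. Per 1000 UMIs of the 4 macrophage genes these cells held 2029 and 3308 UMIs of Ccl2, far above the 216 and 159 of monocyte-macrophage cells. Ccl8 was at 267 and 139 CPM, a ratio of 1.92 (95% counting interval 1.65 to 2.23), which became 1.10 with each cell given the same weight. A single cell of the library labelled SMYD3 knockdown held 132 of 382 UMIs. Both sums thus rest in part on single cells. In CPM the Ccl8 levels were below the 291 and 451 CPM of T cells. By UMIs per cell they were above, at 7.07 and 3.37 against 0.975 and 1.64. Median depths were 20775 and 24440 UMIs, against 3032 and 2895 in T cells.

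The receptors of these ligands were measured in the same cells. In monocyte-macrophage cells 4 of 14 receptors had enough counts, and 0 of 4 differed by 1.5-fold. Over all genes counted there, 0.303% were that much higher and 0.657% that much lower, so 0 of so few is no result about receptors. Ccr2, the receptor of Ccl2, Ccl7 and Ccl12, was at 289 and 289 CPM, and Ccr1 at 264 and 236 CPM. Ccrl2, an atypical receptor, was at 179 and 212 CPM. Neutrophils had more Ccr1, at 1457 and 1503 CPM, and more Ccrl2, at 2608 and 2479.6 CPM. Ccr8 and Ccr4, the receptors of Ccl8 and Ccl22, had 0 UMIs in monocyte-macrophage cells, neutrophils and dendritic cells, where a count of 0 is read as up to 3 UMIs in each sum. In dendritic cells 5 receptors were counted and 1 was at least 1.5-fold lower, Ccrl2 at 45.6 and 75.2 CPM, against 3.54% of all genes counted. Ccr2 was at 191 and 238 CPM there.

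Of 10 other CC ligands, 2 had enough counts in monocyte-macrophage cells. Ccl17, another ligand of CCR4 and a neighbour of Ccl22, was at 48.6 and 86.1 CPM, a ratio of 0.565. It was the 1 of these 2 that passed 1.5-fold, where 0.657% of all genes counted were that much lower. Dendritic marker transcripts were lower in the same gate too, at 11.7 and 20.9 CPM, and their part in the Ccl17 ratio was not tested. Ccl24 was at 148 and 141 CPM. In dendritic cells Ccl17 was at 692 and 835 CPM, a ratio of 0.829, while Ccl22 had a ratio of 1.29 there. Genes of the NF-kappaB pathway and its feedback, a regulator of many chemokine genes, were counted for 10 of 10 members in monocyte-macrophage cells, and 0 passed 1.5-fold in either direction. Their median log2 difference was -0.16, with Tnfaip3 at 98.7 and 127 CPM and Nfkbiz at 210 and 256 CPM. Only Tnf was higher in the library labelled SMYD3 knockdown, at 52.9 and 44.8 CPM. Of 6 genes for glycan-bearing or chemokine-binding partners, 5 were counted and 0 passed, with a median of -0.08. Over all genes counted in these cells 0.303% were at least 1.5-fold higher and 0.657% lower. A count of 0 in such short lists is therefore no result about them.

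Across 27 groups of gated type or macrophage state and library, the genes most like each member were found by Pearson's r of log2(CPM + 5) among 6696 genes. The groups share libraries, and the gating markers are among the genes, so these are descriptions. Most like Ccl12 were C1qb, C1qc and C1qa (r 0.97 to 0.98), all markers of the macrophage gate. Most like Ccl7 were Trem2, Mrc1 and C3ar1 (r 0.97 to 0.98), and among those most like Ccl9 were Lyz2 and Msr1 (r 0.96 to 0.96). Ccl2 was nearest to Ctsa, Akap7 and Lrp1 (r 0.92 to 0.95), and Ccl8 to Ms4a7, Fam167b and Hsbp1 (r 0.88 to 0.89), the lowest values of any member. Ccl6 was nearest to Itgam, Gda and Clec4n (r 0.95 to 0.96), and Ccl3 to Lilrb4a, Lilr4b and Cxcl2 (r 0.95 to 0.95). Ccl4 was nearest to Rbm7, Vav1 and Cd53 (r 0.91 to 0.93), Ccl5 to Klrk1, Stat4 and Grap2 (r 0.94 to 0.97) and Ccl22 to Strip2, Septin3 and Zfp366 (r 0.99 to 1.00). Among the members themselves the highest value was 0.91 for Ccl6 with Ccl9, followed by 0.91 for Ccl7 with Ccl9 and 0.91 for Ccl7 with Ccl12, and Ccl5 with Ccl2 had -0.71.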

How the data were processed

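Single-cell RNA was measured in 2 droplet libraries (10x Genomics, per the labels). Per the file headers, the deposited matrix of whole UMI counts was made by the authors with Cell Ranger 7.1.0, and the build mm10 comes from the submitters' processing notes. The annotation release, and whether depth was equalised between libraries, were not stated in what was used here. The library of each cell was found by matching the barcodes of each suffix to the deposited table of barcodes and sample titles. The unfiltered libraries held 95803321 and 91523767 UMIs in 10186 and 9265 barcodes.

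Barcodes were kept from 200 genes and 500 UMIs upward, if mitochondrial UMIs did not exceed 20%. Doublets were the highest Scrublet scores at 0.8% per 1000 cells (scanpy 1.11.5), which removed 723 and 603. At its default threshold Scrublet marked 0, so that was not used. Cell types were gated on the mean of log marker levels, each divided by its 90th percentile among positive cells and capped at 1. The minimum score was 0.15 and the margin 0.1. States were gated on the mean of log marker levels, each standardised over monocyte-macrophage cells and clipped. That mean was standardised again, with a minimum of 1 SD and a margin of 0.5 SD. The scoring rules and their thresholds were set after seeing the data. Cells with at least 5% of UMIs from pancreatic genes were called acinar. The members and lists were chosen with earlier results of these data known. UMIs were summed per type and library and divided by all UMIs of that sum (CPM). Intervals are exact at 95%, computed with scipy 1.17.1. Folds over all genes needed 20 UMIs and 10 CPM in either library and used a pseudocount of 5 CPM. Named were all 10 members, up to 4 list genes with the largest fold among those past the minimum, and for each member its 3 most like genes with at least 50 CPM in some group. Smyd3, Ccr4, Ccr8, E230016K23Rik and Gm17268 are named outside this rule, for their tie to the labels or to a member. Values of some genes that the rule covers are not reported here. The computation of ratios, intervals and fold calls was tested on simulated data. The alternatives tried are each cell weighing the same, another scaling, thinning to 1000 UMIs, other filters, a stricter gate, clusters (leidenalg 0.10.2) and equal weights for states.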

Additional observations from a re-analysis of the deposited data

Results flagged for a closer look

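Among neutrophils, dendritic cells, T cells and keratin-positive cells, and with at least 20 UMIs in each library in both types compared, there were 9 cases in which a member differed between the libraries in the opposite direction in another cell type than in monocyte-macrophage cells, with the counting interval of each ratio clear of 1. With 1 library per label the difference between types was not tested. The intervals treat UMIs as independent and do not cover their uneven spread over cells. In neutrophils the variance over mean of UMIs per cell was 22.5 and 17.4 for Ccl3 and 14.8 and 14.3 for Ccl6. An interval clear of 1 is therefore only a rule for listing, most of all for ratios close to 1. Ccl2 had a ratio of 0.517 in keratin-positive cells, against 1.30 in monocyte-macrophage cells, with much of the WT-label sum in 1 cell. Ccl8 had 1.92 in keratin-positive cells, against 0.784, with 132 of 382 UMIs under the label SMYD3 knockdown in 1 cell. That ratio came closer to 1 with each cell given the same weight. Its levels there, 267 and 139 CPM, were below the 291 and 451 CPM of T cells. By UMIs per cell they were above, at 7.07 and 3.37 against 0.975 and 1.64. In neutrophils, Ccl3 had 0.932 against 1.04, and Ccl6 had 1.09 against 0.857. In dendritic cells, Ccl3 had 0.456 against 1.04, Ccl5 had 1.13 against 0.698, and Ccl22 had 1.29 against 0.495. The dendritic Ccl3 sums were 63 and 173 UMIs, and the levels in CPM were below those of T cells, where few cells held most of its UMIs. With each dendritic cell given the same weight their Ccl5 ratio lay on the other side of 1. Their Ccl22 ratio was close to 1 with doublets kept. The monocyte-macrophage values of Ccl5 and Ccl22 were under 10 CPM, 1% of those cells held 96.7 and 89.7% of Ccl5 UMIs, and the Ccl22 ratio there was 1.51 with every cell thinned. In T cells, Ccl4 had 1.57 against 0.967, and Ccl5 had 1.39 against 0.698. T cells with CD8 transcripts had ratios of 0.989 for Ccl4 and 0.971 for Ccl5, with intervals that included 1.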

How the results depend on the processing

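No paired analysis was possible because each label has 1 library. In monocyte-macrophage cells the directions of Ccl2, Ccl3, Ccl4, Ccl6, Ccl7, Ccl9 and Ccl12 were kept in all alternatives, and 88 of 90 values over the 10 members stayed on their side of 1. With each cell weighing the same, the ratios were 1.27 for Ccl2, 1.05 for Ccl3, 0.926 for Ccl4, 0.866 for Ccl6, 1.10 for Ccl7, 0.688 for Ccl8, 0.839 for Ccl9 and 1.32 for Ccl12. Scaled by the median gene ratio, they were 1.32 for Ccl2, 0.979 for Ccl4, 0.867 for Ccl6, 1.16 for Ccl7, 0.793 for Ccl8, 0.838 for Ccl9 and 1.41 for Ccl12. Thinned to 1000 UMIs per cell, they were 1.27 for Ccl2, 1.06 for Ccl3, 0.954 for Ccl4, 0.391 for Ccl5, 1.07 for Ccl7, 0.690 for Ccl8, 0.845 for Ccl9, 1.33 for Ccl12 and, reversed, 1.51 for Ccl22, on few UMIs. With doublets kept they were 1.06 for Ccl3, 0.988 for Ccl4, 0.849 for Ccl6 and 0.765 for Ccl8. With the stricter gate they were 1.28 for Ccl2, 1.03 for Ccl3, 0.609 for Ccl5, 0.839 for Ccl6 and 0.790 for Ccl8. With each state weighing the same they were 1.28 for Ccl2, 0.995 for Ccl4, 0.605 for Ccl5, 0.909 for Ccl6, 1.01 for Ccl8 and 0.849 for Ccl9. With clusters in place of gates Ccl22 had 0.818. Elsewhere Ccl8 in T cells became 1.39 with clusters, and Ccl5 in MHC class II cells 0.827 thinned and 0.628 with the stricter gate. On the other side of 1 lay 7 of 80 values in dendritic cells, 5 of 72 in T cells, 4 of 56 in keratin-positive cells, 2 of 64 in neutrophils and 10 of 56 in Nos2 and Inhba cells, while 5, 7, 6, 0 and 0 values, in the same order, moved by over 1.5 times. The cause of these shifts was not tested.

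Counts of genes past 1.5-fold moved with the minimum. They were 24 higher and 52 lower in monocyte-macrophage cells, 165 and 309 in neutrophils and 183 and 275 in dendritic cells. With at least 100 UMIs and 50 CPM, 12 were higher and 28 lower in monocyte-macrophage cells, 41 and 52 in neutrophils and 22 and 72 in dendritic cells. With at least 1 UMI, 342 were higher and 763 lower in neutrophils and 372 and 488 in dendritic cells. Neutrophils, T cells, NK cells and keratin-positive cells are few or shallow, and 1 library per label leaves every difference without replicate error.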
